A study of Mus musculus and Homo sapiens with 10 samples.

Results

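The genes Dnmt3a, Dnmt3b, Tet1 and Tet2 were examined for 3 histone H3 acetylations in mouse embryonic stem cells (mESC). Their members are the enriched regions, called islands, that overlap a fixed mm9 window around each gene: chr12:3790000-3930000 for Dnmt3a, chr2:153450000-153530000 for Dnmt3b, chr10:62250000-62360000 for Tet1 and chr3:133110000-133230000 for Tet2. These windows held 101 islands of the 272566 in the 3 mouse lists, of which 33 were H3K122ac, 19 H3K64ac and 49 H3K27ac. The cells were the 46c line, which carries a Sox1-GFP reporter, kept undifferentiated without feeders in serum with LIF, at passages 25 to 28. Native chromatin was cut with micrococcal nuclease and precipitated with an antibody to H3K122ac, H3K64ac or H3K27ac, with 2 replicates for each. The authors merged the 2 replicates of a mark before calling islands, so each mark has 1 list and no difference below has a replicate test. Intervals are exact 95% intervals that cover counting error only. The windows are taken as given, because no mm9 annotation was used here to place the genes or their exons in them.

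DNMT3A and DNMT3B are the methyltransferases that place new methyl groups on cytosines in CpG dinucleotides. TET1 and TET2 are dioxygenases that oxidise methylated cytosine to hydroxymethylcytosine, the first step of its removal. All 4 genes are known to be active in embryonic stem cells, where gain and loss of methylation run side by side. H3K122 and H3K64 lie in the globular core of the nucleosome close to the DNA, whereas H3K27 lies on the histone tail, and its acetylation commonly marks active promoters and enhancers.

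The promoters of these genes are shown because CpG dinucleotides are the substrate of the encoded enzymes and because much of the acetylation lay on the upstream side of the window midpoint at 3 of the genes. At Tet1 that side included islands that ran past the window end. The sequences are from RefSeq on GRCm38.p6, run from 250 bases before to 50 after an annotated start, and have each CG in capitals. They could not be placed inside an island, since the islands are on mm9 and positions differ between the builds. Dnmt3a had 3 entries, of which the first and the last, an internal start, are given with 1 entry for each other gene.
Dnmt3a first (GRCm38.p6 chr12:3806730-3807029, plus strand): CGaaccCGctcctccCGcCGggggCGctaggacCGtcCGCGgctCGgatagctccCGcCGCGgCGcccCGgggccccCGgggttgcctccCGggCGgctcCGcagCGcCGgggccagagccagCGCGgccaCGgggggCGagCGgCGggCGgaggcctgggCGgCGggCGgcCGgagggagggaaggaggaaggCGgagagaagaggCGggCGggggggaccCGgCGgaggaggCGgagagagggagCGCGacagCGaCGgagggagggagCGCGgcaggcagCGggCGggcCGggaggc
Dnmt3a internal (GRCm38.p6 chr12:3891494-3891793, plus strand): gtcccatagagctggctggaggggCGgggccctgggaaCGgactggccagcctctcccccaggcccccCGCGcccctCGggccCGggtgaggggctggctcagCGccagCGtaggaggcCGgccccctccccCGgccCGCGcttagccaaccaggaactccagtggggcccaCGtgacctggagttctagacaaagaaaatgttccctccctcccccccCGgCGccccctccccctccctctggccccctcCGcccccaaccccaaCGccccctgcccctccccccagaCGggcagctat
Dnmt3b (GRCm38.p6 chr2:153649199-153649498, plus strand): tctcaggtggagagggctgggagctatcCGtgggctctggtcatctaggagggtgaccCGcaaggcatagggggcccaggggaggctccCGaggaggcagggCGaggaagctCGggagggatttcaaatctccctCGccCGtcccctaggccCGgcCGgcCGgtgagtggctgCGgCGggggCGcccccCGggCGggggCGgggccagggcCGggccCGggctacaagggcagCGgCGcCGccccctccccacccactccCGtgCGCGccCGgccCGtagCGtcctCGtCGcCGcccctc
Tet1 (GRCm38.p6 chr10:62887275-62887574, minus strand): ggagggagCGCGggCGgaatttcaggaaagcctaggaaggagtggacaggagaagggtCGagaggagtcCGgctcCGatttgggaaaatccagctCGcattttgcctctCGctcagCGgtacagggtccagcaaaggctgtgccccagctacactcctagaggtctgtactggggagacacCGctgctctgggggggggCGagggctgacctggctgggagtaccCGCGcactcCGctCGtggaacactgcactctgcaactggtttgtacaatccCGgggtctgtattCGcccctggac
Tet2 (GRCm38.p6 chr3:133544341-133544640, minus strand): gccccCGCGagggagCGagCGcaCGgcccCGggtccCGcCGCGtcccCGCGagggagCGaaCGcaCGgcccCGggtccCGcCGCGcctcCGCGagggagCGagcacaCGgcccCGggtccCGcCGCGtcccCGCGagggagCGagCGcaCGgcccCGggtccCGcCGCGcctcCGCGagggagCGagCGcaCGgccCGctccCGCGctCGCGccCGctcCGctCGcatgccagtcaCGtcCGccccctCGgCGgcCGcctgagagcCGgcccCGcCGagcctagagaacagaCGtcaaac
CG, which reads the same on both strands, occurred 46 times in the first Dnmt3a promoter, 18 times in the internal one, 30 times in that of Dnmt3b, 17 times in that of Tet1 and 57 times in that of Tet2. The median over all 32851 promoters in the table was 7.0, and 94.6% held at least 1. As many CG as in the Tet2 promoter were found in 0.152% of promoters, as many as in the first Dnmt3a promoter in 1.65%, as in Dnmt3b in 11.7%, as in the internal Dnmt3a start in 29.7%, and as in Tet1 in 31.4%.

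The acetylations differed more in where they lay than in whether they were present, since each window carried all 3. H3K122ac covered 37.3% of the Dnmt3a window, 21.0% of Dnmt3b, 27.3% of Tet1 and 29.7% of Tet2. H3K64ac covered 16.7% of Dnmt3a, 23.0% of Dnmt3b, 56.9% of Tet1 and 29.5% of Tet2. H3K27ac covered 4.86% of Dnmt3a, 10.5% of Dnmt3b, 53.1% of Tet1 and 28.0% of Tet2. The Tet1 window was thus the most widely acetylated for H3K64ac and H3K27ac, and Dnmt3a for H3K122ac. After overlapping islands of the 3 lists were merged there were 45 regions, 13 in the Dnmt3a window, 7 in Dnmt3b, 14 in Tet1 and 11 in Tet2. Of these, 11 carried all 3 marks and made up 137.6 of the 215.4 kb covered.

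**Figure D1:**
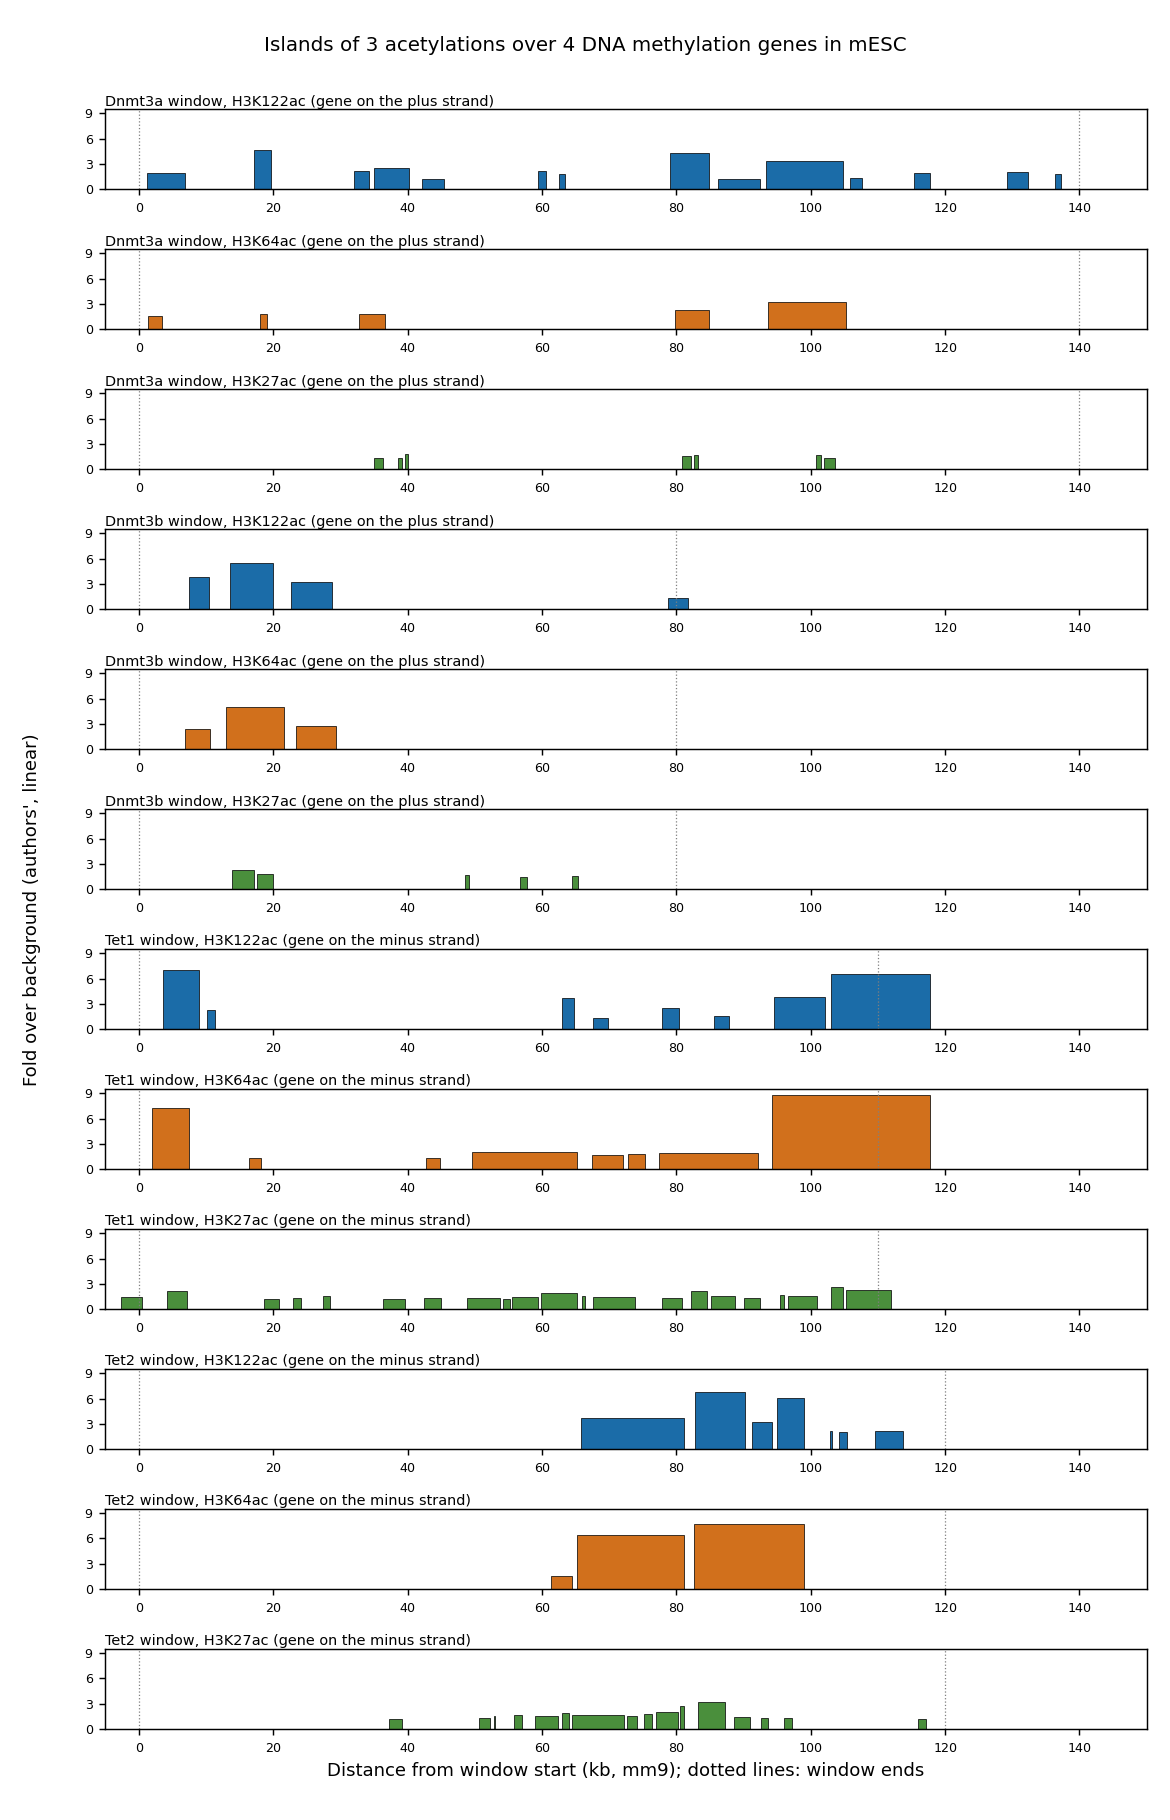
Islands of H3K122ac, H3K64ac and H3K27ac over the 4 windows, as distance from the window start in kb (x axis) against the authors' fold over background on a linear axis (y axis). Bar width is island length, and dotted lines mark the window ends. Folds of H3K122ac and H3K64ac reached 7.04 and 8.77, both in the Tet1 window, and those of H3K27ac 3.21 in the Tet2 window.

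Each island comes with a count of ChIP reads, a count of reads in a background library, and a fold, the ratio of the 2 counts scaled by 1 library ratio per list. The 33 H3K122ac islands held 28608 ChIP reads against 9058 background reads, the 19 H3K64ac islands 39474 against 8550, and the 49 H3K27ac islands 24282 against 6805. A fold of 3 or more was reached by 14 of 33 H3K122ac islands (42.4%, against 46.3% of the whole list), by 6 of 19 H3K64ac islands (31.6%, against 36.2%) and by 1 of 49 H3K27ac islands (2.04%, against 4.44%). These shares lay near those of the lists, so islands with such folds were not more frequent among members than elsewhere. Each island counts once here, whatever its length. Summed over reads, member folds were 3.46 for H3K122ac, 4.27 (4.17 to 4.37) for H3K64ac and 1.63 for H3K27ac. The whole lists held 44320255 ChIP against 14449327 background reads for H3K122ac, 38692934 against 12209979 for H3K64ac and 40473895 against 12374341 for H3K27ac. Summed folds of whole lists were not computed. Median folds were 2.25 for H3K122ac members against 2.83 in the list, 1.99 for H3K64ac against 2.42, and 1.5 for H3K27ac against 1.49. Members were longer than the lists, with median lengths of 3000 bp for H3K122ac against 1800 bp, 5000 bp for H3K64ac against 2600 bp and 1600 bp for H3K27ac against 1200 bp. Of the H3K122ac members, the lowest fold above 3 was 3.17, at chr2:153472601-153478800 in the Dnmt3b window, and the highest below 3 was 2.46, at chr12:3825001-3830200 in the Dnmt3a window.

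Dnmt3a encodes a methyltransferase with a long form and a shorter form made from an internal start, the shorter being the main one in embryonic stem cells. Its window had the lowest summed fold of the 4 in every list, although for H3K27ac its interval overlapped that of Tet1. For H3K64ac this did not hold with islands wholly inside the windows, which gave 2.29 at Tet1 and 2.62 at Dnmt3a. Over its 14 H3K122ac islands 8916 ChIP reads stood against 3931 background reads, a fold of 2.48 (2.39 to 2.58) over 52.2 kb. Its 5 H3K64ac islands gave 5008 against 1769 reads, a fold of 2.62 (2.48 to 2.76) over 23.4 kb, and its 7 H3K27ac islands 1708 against 534 reads, a fold of 1.46 (1.33 to 1.62) over 6.8 kb. H3K122ac was spread in many separate and mostly weak islands, whereas H3K27ac came in short pieces of 400 to 1600 bp.

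The H3K122ac island of highest fold at Dnmt3a lay 17.2 kb into the window, at chr12:3807201-3809600, with 423 ChIP reads against 99 background reads, a fold of 4.68 (3.75 to 5.89). H3K64ac there formed a 1000 bp island of 130 against 67 reads, a fold of 1.79 (1.33 to 2.45), and no H3K27ac island met it. At chr12:3869001-3874800, 1950 H3K122ac reads stood against 499, a fold of 4.28 (3.88 to 4.73), while the H3K64ac island ending at the same base had 1044 against 430, a fold of 2.24 (2.00 to 2.52). The longest region, chr12:3883401-3895200, carried a single H3K122ac island of 11400 bp and a fold of 3.32 (3.08 to 3.59), and a single H3K64ac island of 11600 bp and a fold of 3.24 (3.01 to 3.49). So at Dnmt3a the highest H3K64ac fold lay in this long region, and the highest H3K122ac folds in the other 2. H3K27ac formed 2 islands at chr12:3869001-3874800, with a summed fold of 1.60 (1.35 to 1.91), and 2 in the long region, with 1.39 (1.17 to 1.65). The H3K27ac island of highest fold, chr12:3829601-3830000, had 103 reads against 27, and its fold of 1.75 has an interval of 1.13 to 2.77. The remaining 11 H3K122ac islands had folds of 1.16 to 2.46, and 8 of the 14 met neither other mark, a class that made up 28.3% of the whole H3K122ac list. The longest of these 8, chr12:3876201-3882400, had 576 reads against 544, a fold of 1.16 (1.03 to 1.31). The longest region with H3K122ac and H3K64ac alone, chr12:3791201-3796800, had folds of 1.87 (1.65 to 2.12) and 1.53 (1.20 to 1.96).

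Dnmt3b encodes the methyltransferase that predominates in early embryonic cells, and within the 80 kb window its H3K122ac and H3K64ac lay mostly in 1 block. With the window widened by 20 kb on each side, H3K122ac had 8 islands over 37800 bp and H3K64ac 5 islands over 35600 bp. Its 4 H3K122ac islands had 4459 ChIP reads against 1334 background reads, a fold of 3.66 (3.44 to 3.89) over 18.6 kb, and its 3 H3K64ac islands 4852 against 1260, a fold of 3.56 (3.34 to 3.79) over 18.4 kb. The 5 H3K27ac islands had 2189 against 540 reads, a fold of 1.85 (1.69 to 2.04) over 8.4 kb. H3K122ac and H3K64ac formed 3 neighbouring paired islands between 6.8 and 29.4 kb from the window start. The middle pair was strongest for both, with 1984 H3K122ac reads against 396 at chr2:153463601-153470000, a fold of 5.49 (4.92 to 6.13), and 2701 H3K64ac reads against 503 at chr2:153463001-153471600, a fold of 4.96 (4.51 to 5.47). H3K27ac met this middle pair and neither of its neighbours, in 2 islands of which chr2:153463801-153467200 had 836 reads against 165, a fold of 2.32 (1.96 to 2.76). The outer H3K122ac islands without H3K27ac had folds of 3.82 (3.30 to 4.45) and 3.17 (2.85 to 3.52), and their H3K64ac partners 2.42 (2.10 to 2.79) and 2.74 (2.47 to 3.04). Farther along, 3 H3K27ac islands of 600 to 1000 bp with folds of 1.45 to 1.68 had neither other mark. The remaining H3K122ac island, chr2:153528801-153531800, crossed the far end of the window with 267 reads against 222 and no other mark, a fold of 1.32 (1.1 to 1.58).

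Tet1 has a product known to be abundant in embryonic stem cells. The window around it held the islands of highest fold for H3K122ac and H3K64ac. They lay near opposite ends of the window, the H3K122ac island 3.6 kb from its downstream end, and were not assigned to a gene. For both marks the interval overlapped that of the highest island at Tet2. The H3K64ac island reached 7800 bp outside the window. With islands wholly inside the windows, the highest H3K64ac fold was 7.20 at Tet1 and 7.73 at Tet2. The 8 H3K122ac islands of Tet1 had 8883 ChIP reads against 2100 background reads, a fold of 4.63 (4.42 to 4.86) over 37.8 kb. Its 8 H3K64ac islands had 18224 against 3910, a fold of 4.31 (4.16 to 4.46) over 70.4 kb, and its 21 H3K27ac islands 13356 against 3863, a fold of 1.58 (1.53 to 1.64) over 63.0 kb. Strong signal sat at both ends of the window, with long weak islands between them.

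On the upstream side of Tet1, which is on the minus strand, a single H3K64ac island, chr10:62344201-62367800, ran for 23600 bp with 11542 reads against 1216, a fold of 8.77 (8.27 to 9.31). Of all H3K64ac islands in the list, 97.1% had a lower fold. H3K122ac covered most of that stretch in 2 islands, chr10:62344601-62352200 with a fold of 3.83 (3.43 to 4.29) and chr10:62353001-62367800 with 4639 reads against 781, a fold of 6.51 (6.03 to 7.03). H3K27ac met it in 4 islands, the strongest of them chr10:62353001-62354800 with 351 reads against 60, a fold of 2.68 (2.03 to 3.58). At the opposite end, H3K122ac at chr10:62253601-62259000 had 1427 reads against 222, a fold of 7.04 (6.11 to 8.15). H3K64ac at chr10:62252001-62257400 had 1738 reads against 223, a fold of 7.20 (6.26 to 8.32), and H3K27ac at chr10:62254201-62257200 had 649 against 141, a fold of 2.11 (1.75 to 2.54). Islands were not assigned to genes, and Ccar1 and Slc25a16 are the protein-coding neighbours of Tet1 in RefSeq. The H3K64ac islands between the ends had folds of 1.32 to 1.99, including 15600 bp at chr10:62299601-62315200 with 1.99 (1.84 to 2.15). At that stretch H3K122ac was called over 1800 bp, with a fold of 3.64 (2.95 to 4.52). H3K27ac ran through this middle of the window as well, in islands of 400 to 6200 bp with folds of 1.22 to 2.12. Its longest island with no other mark, chr10:62286401-62289600, had 569 reads against 213, a fold of 1.22 (1.04 to 1.44). At chr10:62292401-62295000 it was met by H3K64ac alone, with folds of 1.32 (1.05 to 1.66) for H3K64ac and 1.30 (1.09 to 1.57) for H3K27ac. Islands reaching outside a window weighed on Tet1: with only islands wholly inside it, its summed fold was 3.52 for H3K122ac and 2.29 for H3K64ac, which for H3K64ac is below that of Dnmt3a.

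Tet2, whose product lacks the DNA-binding CXXC domain that TET1 has, had its H3K122ac and H3K64ac in the upstream part of the window, from 61.4 kb onward. Its 7 H3K122ac islands had 6350 ChIP reads against 1693 background reads, a fold of 4.11 (3.89 to 4.34) over 35.6 kb, and its 16 H3K27ac islands 7029 against 1868, a fold of 1.72 (1.64 to 1.81) over 33.6 kb. Its 3 H3K64ac islands had 11390 against 1611, a fold of 6.53 (6.20 to 6.89) over 35.4 kb, the highest summed H3K64ac fold of the 4 windows. Almost all of it came from 2 adjoining islands, chr3:133175201-133191200 with 5524 reads against 801, a fold of 6.37 (5.92 to 6.87), and chr3:133192601-133209000 with 5629 against 673, a fold of 7.73 (7.13 to 8.38). In the first stretch H3K122ac had 2570 reads against 776, a fold of 3.63 (3.35 to 3.94). In the second it formed 3 islands, the strongest of them chr3:133192801-133200200 with 1765 reads against 287, a fold of 6.74 (5.94 to 7.66). The only H3K27ac island of the 4 windows with a fold of 3 or more lay there, chr3:133193201-133197200, with 1096 reads against 156, a fold of 3.21 (2.72 to 3.83). Of the H3K27ac list, 96.4% of islands had a lower fold. Upstream of this block lay 3 H3K122ac islands with no other mark and folds of 1.99 to 2.15, the longest of them chr3:133219601-133223800 with 458 reads against 233. Downstream of it, chr3:133169001-133174400 carried H3K64ac and H3K27ac without H3K122ac, the H3K64ac island with 237 reads against 137, a fold of 1.60 (1.29 to 1.99). Farther downstream, 4 H3K27ac islands with folds of 1.19 to 1.64 had neither other mark.

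**Figure D2:**
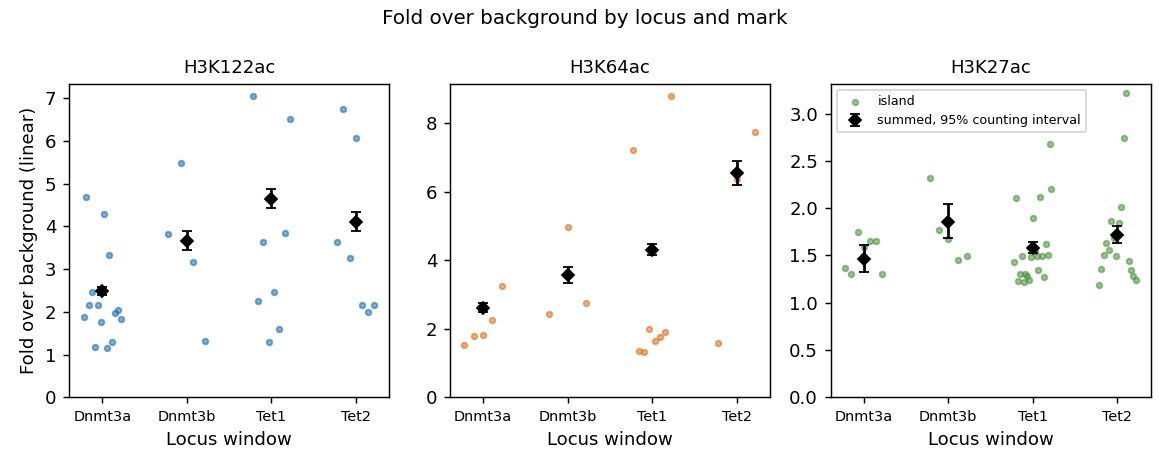
Fold over background of each island (coloured points) and summed over the islands of a window (black diamonds, bars are 95% counting intervals) for the 4 windows on linear y axes that differ between the 3 marks. The summed H3K64ac fold was 2.62 in the Dnmt3a window and 6.53 in the Tet2 window, while H3K27ac stayed between 1.46 and 1.85. Over the whole lists, percentile 90 of island folds was 5.59 for H3K64ac and 2.36 for H3K27ac.

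By summed fold, the order for H3K122ac was Tet1, Tet2, Dnmt3b and Dnmt3a, where the intervals of Tet2 and Dnmt3b overlapped. That order turned when only islands wholly inside a window were taken, with 4.13 at Dnmt3b, 4.11 at Tet2, 3.52 at Tet1 and 2.48 at Dnmt3a. For H3K64ac it was Tet2, Tet1, Dnmt3b and Dnmt3a, with no neighbouring intervals overlapping, and Tet1 came last, at 2.29, with islands wholly inside the windows. For H3K27ac it was Dnmt3b, Tet2, Tet1 and Dnmt3a, and each neighbouring pair of intervals overlapped. Background density was higher at the 2 genes with lower H3K122ac and H3K64ac folds. In H3K122ac islands it was 75.3 reads per kb at Dnmt3a, 71.7 at Dnmt3b, 55.6 at Tet1 and 47.6 at Tet2, and its part in the fold was not tested. Excess reads, which are the scaled ChIP count minus background per kb of island, gave for H3K122ac 202 at Tet1, 191 at Dnmt3b, 148 at Tet2 and 112 at Dnmt3a. For H3K64ac excess reads per kb were 252 at Tet2, 184 at Tet1, 175 at Dnmt3b and 122.2 at Dnmt3a, the same order as by fold. For H3K27ac they were 54.9 at Dnmt3b, 40.1 at Tet2, 36.4 at Dnmt3a and 35.7 at Tet1. Single islands shifted more, and by excess the H3K122ac island at chr12:3869001-3874800 in the Dnmt3a window, at 282 reads per kb, stood beside the highest at Tet1, at 291, and above those of Dnmt3b, at 278, and Tet2, at 230.

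**Figure D3:**
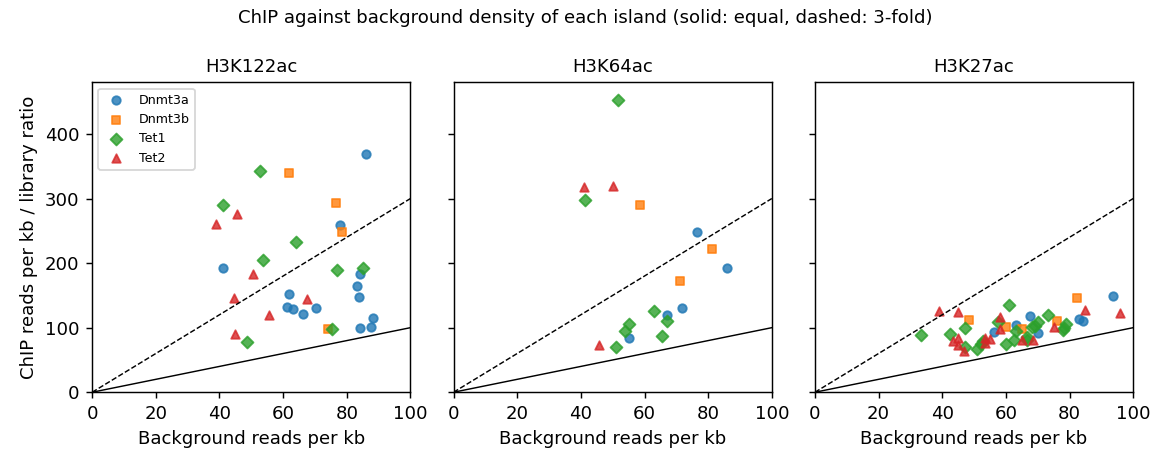
Background reads per kb (x axis) against ChIP reads per kb divided by the library ratio of the list (y axis) for each island, by window and mark, on linear axes. The solid line is equal density and the dashed line a fold of 3. H3K122ac islands spread along the background axis from 41.2 to 88.3 reads per kb at Dnmt3a (circles) and from 41.1 to 85.0 at Tet1. The Dnmt3a H3K122ac island of highest fold has 41.2 background reads per kb, and the one with 368 scaled reads per kb has 86.0.

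Acetylation of the globular domain in places where H3K27ac is missing is a central question of the study. Of the 33 H3K122ac islands, 18 (54.5%) shared no base with H3K27ac, against 44.4% of the whole list, and of the 19 H3K64ac islands 5 (26.3%), against 27.5%. The windows differed. H3K27ac was missing from 11 of 14 H3K122ac islands at Dnmt3a, 3 of 4 at Dnmt3b, 1 of 8 at Tet1 and 3 of 7 at Tet2. In all, 14 of 18 H3K122ac islands (77.8%) of the methyltransferase windows had no H3K27ac, and 4 of 15 (26.7%) of the dioxygenase windows. For H3K64ac the counts were 4 of 8 and 1 of 11. By length, H3K27ac covered 13% of H3K122ac islands at Dnmt3a, 31.2% at Dnmt3b, 76.2% at Tet1 and 58.4% at Tet2. Neighbouring islands are not independent, and background density, at medians of 77.3 and 52.8 reads per kb of H3K122ac island in the methyltransferase and dioxygenase windows, moved with the split; its part was not tested.

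H3K122ac without H3K64ac was seen at 13 of 33 islands (39.4%), the share of the list being 39.4% as well, and 8 of the 13 lay in the Dnmt3a window. H3K64ac without H3K122ac was seen at 4 of 19 islands (21.1%), against 6.54% of the list, 3 of them at Tet1 and 1 at Tet2, with folds of 1.32 to 1.76. H3K27ac with neither other mark was seen at 14 of 49 islands (28.6%), against 40.1% of the list, namely 6 at Tet1, 5 at Tet2, 3 at Dnmt3b and 0 of 7 at Dnmt3a. These H3K27ac islands had folds of 1.19 to 1.68, on both sides of the list median of 1.49, and lengths of 200 to 3200 bp. At a q-value of at most 1e-10 in every list, only 1 such island was counted. H3K122ac islands without H3K64ac then numbered 7, which is not the number left of the 13. It includes chr12:3807201-3809600, with a fold of 4.68, because the H3K64ac island that met it did not pass the cutoff.

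Position within the window differed as well. On the upstream side of the window midpoint lay 98.0% of the excess H3K122ac reads at Dnmt3b, 80.7% at Tet1 and all of those at Tet2, but 26.6% at Dnmt3a. For H3K64ac the share was 88.7% at Tet1 and 11.7% at Dnmt3a, and all of the excess was upstream at Dnmt3b and Tet2. For H3K27ac it was 80.3% at Dnmt3b, 77.5% at Tet1, 92.9% at Tet2 and 30.4% at Dnmt3a. Strand was taken from RefSeq, and the windows reach past the genes by unequal distances, so a midpoint is not a point in the gene. At Tet1 the shares count in full an H3K122ac and an H3K64ac island that ran 7800 bp past the upstream window end. Their excess was 291 and 400 reads per kb, so the Tet1 shares lean on reads from outside the window. Shares without these islands were not computed. At Dnmt3a alone most of the excess of each mark lay downstream of the midpoint.

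The balance between the globular marks was compared where an H3K122ac and an H3K64ac island covered at least 50% of each other. Over 44330 such pairs in the lists the H3K122ac fold was a median of 1.30 times the H3K64ac fold, with percentiles 10 and 90 at 0.846 and 2.15. The windows held 8 pairs, with ratios of 0.569 to 1.91. The lowest ratio belonged to Tet2, where H3K122ac reached 3.63 (3.35 to 3.94) and H3K64ac 6.37 (5.92 to 6.87) over nearly identical islands, and 0.544% of all pairs had a lower ratio. The long pair upstream at Tet1 came next, at 0.742, with 4.36% of pairs below it. Its spans were unlike, an H3K122ac island of 14800 bp and an H3K64ac island of 23600 bp, and both reached 7800 bp outside the window. The H3K64ac island also met another H3K122ac island, and the summed H3K122ac fold of that region was 5.59. The highest ratio, 1.91, was that of chr12:3869001-3874800 at Dnmt3a, with 83.9% of pairs below it. Dnmt3b had ratios of 1.58, 1.11 and 1.16 along its 3 pairs, and the longest Dnmt3a region 1.03. The pair at the downstream end of the Tet1 window had 0.978, with overlapping intervals. So 2 of the 8 ratios, 1 at Dnmt3a and 1 at Dnmt3b, lay above the median of the lists. The other ratios of Dnmt3a and Dnmt3b lay below it, as did those of Tet1 and Tet2.

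For H3K122ac and H3K27ac the windows held 6 pairs, with ratios of 1.07 to 3.34 around the list median of 2.00 over 29166 pairs. The highest was at the downstream end of the Tet1 window, at chr10:62253601-62259000. The same place gave the highest of the 3 ratios of H3K64ac to H3K27ac, 3.42, with 96.4% of 21473 pairs below it and a list median of 1.68. Across the 11 regions with all 3 marks, summed H3K122ac folds ran from 1.29 to 7.04 and H3K64ac folds from 1.68 to 8.77, while H3K27ac folds kept to 1.39 to 2.11. The lists differ in spread as well, with percentile 90 of island folds at 6.73 for H3K122ac, 5.59 for H3K64ac and 2.36 for H3K27ac. Folds of the 3 lists are on scales of their own, so neither the level nor the width of the range can be compared between marks.

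**Figure D4:**
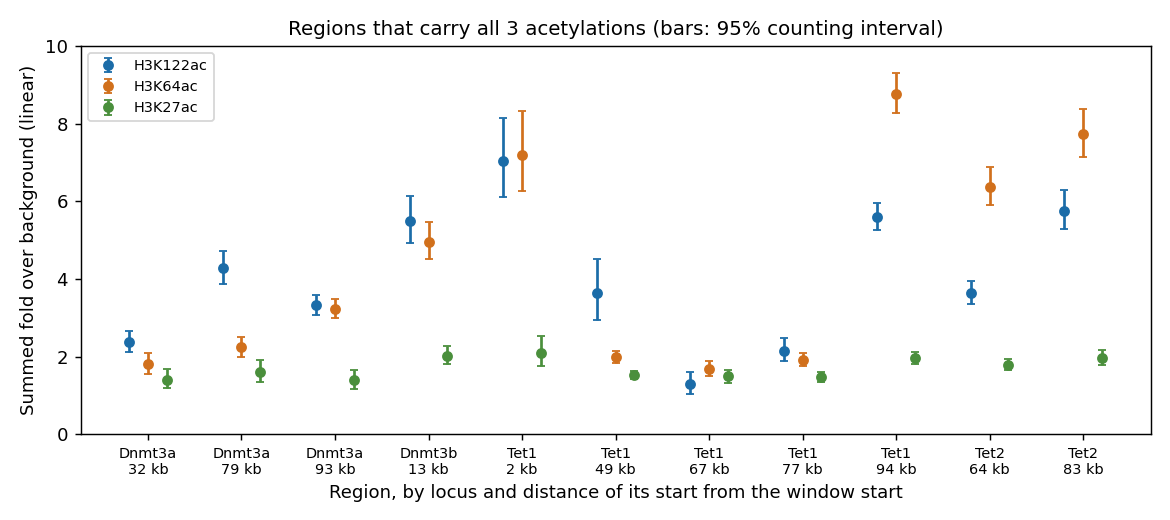
Summed fold over background of H3K122ac, H3K64ac and H3K27ac in the 11 regions that carry all 3 marks, named by window and by the distance of the region start from the window start, on a linear y axis (bars are 95% counting intervals). Each mark is to be followed along the regions, since the lists have scales of their own: H3K122ac spans 1.29 to 7.04, H3K64ac 1.68 to 8.77 and H3K27ac 1.39 to 2.11.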

How the data were processed

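Bowtie 0.12.8, HOMER 4.3, SICER 1.1 and mm9 are named in the submitters' processing notes, without roles. Per the labels of the deposited lists, islands were built from 200 bp windows at a false discovery rate of 0.01. The gap allowed was 600 bp for H3K122ac and H3K64ac but 200 bp for H3K27ac, which splits H3K27ac more finely. The authors merged the 2 replicates of a mark before calling. Each deposited list holds whole-number counts of ChIP and background reads, not normalized, and a q-value. The deposited fold is the ratio of both counts divided by a constant library ratio, 0.913 for H3K122ac, 1.08 for H3K64ac and 2.19 for H3K27ac. The 3 lists shared a background library, since islands of the same start and end had equal background counts in all 5372, 4091 and 1922 cases. No source used here names that library or the depth of the libraries, and the islands of the lists held 44320255, 38692934 and 40473895 ChIP reads.

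Positions were made 1-based. Members overlap a window by at least 1 bp. Summed folds used all counts of a window's islands, with Clopper-Pearson 95% intervals on the ChIP share. Reads are not independent molecules, so these intervals cover counting error only. Named islands were, per window and list, the 2 of highest fold with at least 10 background reads and the longest, and per window the region with all 3 marks and the highest H3K122ac fold and the longest regions with 2 marks and with 1. Others were named after their values were seen. The members and comparisons were chosen with earlier results of these data known; excess reads per kb and paired islands were added after the values were seen. Alternatives were a stricter q-value, islands inside the window, wider windows, joined H3K27ac islands, a larger overlap and no background minimum. The 4 genes were matched by symbol to RefSeq (GRCm38.p6). Other genes of the pathway and the human lists were not analysed here. Python 3.11.15 with pandas 2.3.3, numpy 2.4.6 and scipy 1.17.1 was used, and the code was tested on simulated data.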

Additional observations from a re-analysis of the deposited data

How the results depend on the processing

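Recomputing 55 counts, lengths and folds gave 201 values. In 166 a count or length stayed within 1.5 times, or a fold within its counting interval. Some of these could not move, so 166 is not a measure of stability. Every member had at least 10 background reads, which fixed the 12 values without that minimum. Joining H3K27ac islands kept their summed counts, and no Dnmt3a or Tet2 island reached outside its window. With a q-value of at most 1e-10 island numbers fell to 9 for Dnmt3a H3K122ac, 3 for Dnmt3a H3K64ac, 1 for Dnmt3a H3K27ac (1400 bp), 2 for Dnmt3b H3K27ac, 12 for Tet1 H3K27ac and 8 for Tet2 H3K27ac. Summed folds were then 2.96, 4.13 and 5.11 for H3K122ac at Dnmt3a, Dnmt3b and Tet1, 4.49 for H3K64ac at Tet1, and 1.68 and 1.92 for H3K27ac at Tet1 and Tet2, while H3K122ac islands without H3K64ac numbered 7 and H3K27ac islands with neither other mark 1. With islands wholly inside the window the H3K122ac fold was 4.13 at Dnmt3b and 3.52 at Tet1 (23000 bp). At Tet1 the H3K64ac fold was 2.29 over 46800 bp with a highest island of 7.20, and the H3K27ac fold 1.51. In windows widened by 20 kb Dnmt3b had 8 H3K122ac islands over 37800 bp and 5 H3K64ac islands over 35600 bp with a fold of 3.03. H3K64ac folds were then 2.33 at Dnmt3a and 4.07 at Tet1, and H3K27ac folds 1.32 at Dnmt3a (12400 bp) and 1.61 at Dnmt3b. H3K27ac joined across 600 bp left 4 islands at Dnmt3a and 10 at Tet2. With 50% of the island covered, 9 H3K64ac islands were without H3K27ac. Other than by construction (fewer islands, other window ends), the cause was not tested. No paired analysis was possible because the replicates of each mark were merged before islands were called.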
